A study of Homo sapiens with 8 samples.

Results

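BCBL1 was set against BC3 while both cell lines were grown with 5 µM lenalidomide. The comparison held 4 of the 8 arrays of the series, those labelled as treated in either line, with 2 arrays for each line. The other 4 arrays held the same lines grown with the solvent DMSO in otherwise identical medium and served as the reference for how far the lines differed without the drug. BC3 and BCBL1 are each 1 established line, and whether separate cultures were grown is not stated. The series text calls the arrays of a group technical replicates. The p-values thus reflect only how arrays of these cultures vary, and with the line as the unit the comparison is 1 against 1. How long the cells were exposed to the drug is unknown here.

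BC3 and BCBL1 are lines of primary effusion lymphoma, a B-cell tumour that grows as floating cells in body cavities and carries Kaposi sarcoma herpesvirus. Cells of this tumour have typically switched off much of the B-cell programme and look like immunoblasts or plasma cells, and the transcription factor IRF4 and NF-kB signalling are known for keeping them alive. Lenalidomide binds cereblon, the receptor subunit of a ubiquitin ligase, and makes it mark IKZF1 and IKZF3, transcription factors of lymphoid cells, for destruction. The question the comparison addresses is which transcripts the treated lines had at different levels.

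Signal was measured on Illumina bead arrays from total RNA. Values of single arrays are given as the deposited intensity, on a linear scale and before normalization between arrays. The arrays had a median intensity of 137 to 153, and 47.0% to 51.2% of probes lay above background on each. Background ended at an intensity of 138 to 153, depending on the array. A difference is BCBL1 minus BC3 on the log2 scale after normalization, with the standard error of a limma fit over all 8 arrays (n = 2 arrays per group). An adjusted p is limma's after Benjamini-Hochberg adjustment over 12864 genes, and a gene is called where it lay under 0.05. Across genes, the arrays of a treated line correlated with r of 0.994 in either line, and arrays of different treated lines with r of 0.924 to 0.927; genes are not independent replicates.

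With lenalidomide, 5371 of 12864 genes were called between the lines, or 41.8%. Of these, 2630 (20.4%) were higher in BCBL1 and 2741 (21.3%) higher in BC3. Most differences were small, with a median size of 0.29 on the log2 scale against a median standard error of 0.13. A called difference of at least 2-fold was found for 1349 genes (10.5%), 610 (4.74%) higher in BCBL1 and 739 (5.74%) higher in BC3. The large differences lay more often on the side of BC3, with 225 genes higher in BC3 against 117 in BCBL1 at 4-fold or more, and 43 against 14 at 16-fold or more. With arrays set to equal medians instead of quantile-normalized, 1770 genes were higher in BCBL1 and 3325 higher in BC3, so that 34.7% of the calls were higher in BCBL1 in place of 49.0%. Median scaling put the median of all genes at -0.09, against 0.0071 with quantile normalization. Of the genes above background on both arrays of both treated lines (9845), 7949 (80.7%) had a 95% interval of the difference that lay within 2-fold either way.

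**Figure D1:**
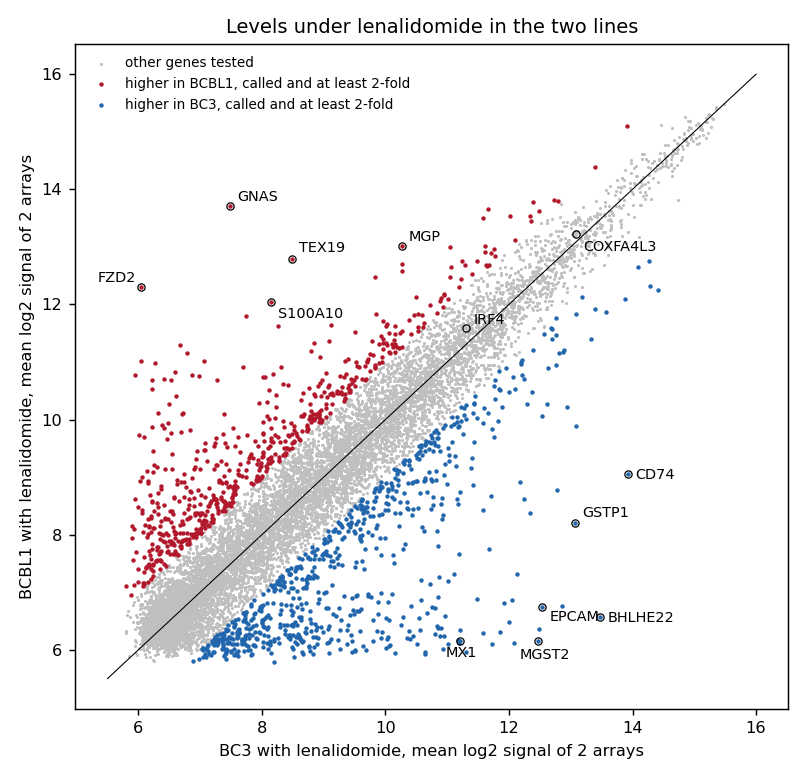
Mean log2 signal of each of 12864 genes in BC3 with lenalidomide (horizontal axis) and in BCBL1 with lenalidomide (vertical axis), 2 arrays each. Red points are the 610 genes called and at least 2-fold higher in BCBL1, blue points the 739 called and at least 2-fold higher in BC3, and the line marks equal signal; circled genes are named in the text, with GNAS and FZD2 far above the line and BHLHE22, MGST2 and EPCAM far below it.

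Markers of cell type were checked first. Of 19 B-cell identity markers only 8 had a probe that passed the filter on low signal, and 6 more, PAX5, EBF1, CD22, FCER2, CD24 and VPREB3, were above background on none of the 4 treated arrays. CD79A, a signalling chain of the B-cell receptor, read 171 and 162 in BC3 and 154 and 155 in BCBL1, just above background in both lines. BLK, a kinase of the B-cell receptor, read 943 and 719 in BC3 and 126 and 117 in BCBL1, where it was not above background, and was at least 8.53-fold higher in BC3 (adjusted p = 2.11e-10). POU2AF1, a B-cell coactivator, went the other way, with 143 and 123 in BC3 and 283 and 281 in BCBL1, at least 2.92-fold higher. The list as a whole had 2 of 8 tested members higher in BCBL1 and 3 higher in BC3. Called were 62.5%, against 41.8% of all genes. A lower signal can come from fewer cells that hold a transcript or from less of it per cell, and bulk arrays cannot tell these apart.

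Of 20 plasma cell and immunoblast markers 16 were tested, with 4 higher in BCBL1 and 7 higher in BC3 and a median of -0.30, against 0.0071 over all genes tested. The share called was 68.8%, against 41.8% of all genes. XBP1 and PRDM1, the transcription factors of plasma cells, read 4424 to 8508 and 2175 to 4099 over the 4 treated arrays. TNFRSF17, the receptor BCMA, read 3896 and 3575 in BC3 and 910 and 987 in BCBL1, a difference of -1.84 ± 0.12 (adjusted p = 7.67e-08). The signal peptidase subunit SEC11C was 3.21-fold higher in BC3 (-1.68 ± 0.13), and FKBP11, a chaperone of secretory cells, 2.92-fold (-1.55 ± 0.12). JCHAIN, which joins immunoglobulin multimers, was at least 3.61-fold higher in BC3, its 2 BCBL1 arrays of 122 and 134 being not above background. The members TNFRSF8, CD27 and TNFRSF13B were above background on 0 treated arrays. Of the 16 tested, 15 in BC3 and 14 in BCBL1 were above background on both treated arrays. Of the 8 tested B-cell markers these were 6 and 7. Both treated lines thus had XBP1 and PRDM1 far above background, and only 8 of 19 B-cell markers could be tested.

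Markers of other cell types also differed. CD4, the coreceptor of helper T cells, read 1793 and 1349 in BC3 and 119 and 136 in BCBL1 and was at least 17.0-fold higher in BC3. GZMA, a granzyme of killer cells, read 5801 and 5112 in BC3 and 12451 and 13164 in BCBL1, 2.62-fold higher in BCBL1 (1.39 ± 0.13), and the adhesion molecule CD2 was 2.46-fold higher there (1.30 ± 0.12). ZAP70, a T-cell receptor kinase, was at least 1.74-fold higher in BC3 on its brightest probe, while its other kept probes gave 0.12 and -0.11. In all, 2 of 11 tested T and NK cell markers were higher in BCBL1 and 6 higher in BC3. Their share called was 72.7%, against 41.8% of all genes. Of the 9 that were not tested, CD5, CD8A, CD247, NKG7 and GNLY were above background on 0 treated arrays. The summed intensity of the tested members was 7996 to 9423 in treated BC3 and 14063 to 14897 in treated BCBL1, most of it from GZMA. Without GZMA the order turned, with 2884 to 3622 in BC3 and 1611 to 1733 in BCBL1.

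Myeloid markers had 0 of 9 tested members higher in BCBL1 and 4 higher in BC3, or 44.4% called against 41.8% of all genes. The members that differed most, S100A9 and S100A8, are described below with the effect of the drug. CD68, a lysosomal protein of macrophages, read 694 and 578 in BC3 and 302 and 292 in BCBL1 (-1.01 ± 0.14, adjusted p = 6.66e-05), and its dimmer probes gave -2.29 and -0.80. FCN1 was the other called member (-0.35 ± 0.12, adjusted p = 0.0334), and its call was lost without either treated BC3 array or array b of treated BCBL1 (adjusted p up to 0.175). The summed intensity of the list was 2890 to 3501 in treated BC3 and 1467 to 1551 in treated BCBL1, against 1608 to 1805 and 1588 to 1666 with DMSO. Of the 9 members not tested, LYZ, ITGAX, ELANE, TYROBP and VCAN were above background on 0 treated arrays. FCER1G was above it on 2, CSF1R and CTSG on 1 each, and CD33 had no probe with a single symbol. Of the 9 tested, 7 in BC3 and 5 in BCBL1 were above background on both treated arrays. The part of these T, NK and myeloid transcripts in the other line differences was not tested.

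The genes with the largest measured excess in BCBL1 came from many functions. GNAS, which encodes the stimulatory G protein alpha subunit, read 295 and 214 in BC3 and 11952 and 12604 in BCBL1. Its difference was 6.22 ± 0.13, or 74.4-fold (adjusted p = 3.37e-12), and the arrays of the lines did not overlap. Another kept GNAS probe lay near background in both lines and gave 0.10. RRAGD, a Rag GTPase that reports amino acids to mTORC1, read 190 and 148 in BC3 and 2185 and 2469 in BCBL1, 24.6-fold higher. TEX19, a gene of the germ line, read 476 and 412 in BC3 and 5647 and 7209 in BCBL1, 19.7-fold higher.

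CDCA7, a zinc-finger protein of dividing cells, was 20.6-fold higher in BCBL1, though another of its probes near background gave -0.20. The potassium channel gene KCNH2 was 18.7-fold higher, with dimmer probes between 1.23 and 1.95 on the log2 scale, and CLEC2B, a ligand of an NK cell receptor, 17.8-fold. S100A10, the partner of annexin A2, read 391 and 336 in BC3 and 3788 and 3998 in BCBL1, 14.9-fold higher. The other measured genes named on this side were JSRP1 (4.05 ± 0.13), LMO3 (3.94 ± 0.12), the actin-binding PALLD (3.91 ± 0.15), GAS6 (3.80 ± 0.12) and the formin FMN2 (3.78 ± 0.11). GAS6 is the ligand of the receptor kinase TYRO3, which was itself 5.30-fold higher in BCBL1 and is given with the receptors below. For each of these 12 genes, both treated BCBL1 arrays lay above both treated BC3 arrays, as they did in one direction or the other for 69.3% of all genes tested.

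Another set of genes was above background on both treated BCBL1 arrays and on neither treated BC3 array, and their folds are lower bounds. The bound sets the mean of the brighter line against background or the dim probe's own signal, whichever is higher. FZD2, a receptor for Wnt ligands, read 134 and 122 in BC3 and 4493 and 4794 in BCBL1, at least 59.0-fold higher. The glucose transporter SLC2A3 was at least 24.2-fold higher, with 130 and 125 against 1843 and 1968. PNMA5 was at least 20.6-fold higher and ODAD3, a docking factor of ciliary dynein, at least 19.2-fold. SLC24A3, a sodium-calcium exchanger, reached at least 17.3-fold, SYT11 at least 13.1-fold, the chromatin remodeller CHD5 at least 11.3-fold and the transcription factor DACH1 at least 10.9-fold. A dimmer DACH1 probe gave 0.06. This pattern held for 418 genes in all, of which 250 were called. Among the genes named below, CFD, PDE3B, RB1, SPARC and TGM2 were above background on 1 of the 2 treated BC3 arrays, and BCL2, FCN1, HERC5, LSR, MAGEC1 and S100A8 on 1 of the 2 treated BCBL1 arrays, so that their folds rest in part on signal at background.

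The genes in excess in BC3 were as varied in function. BHLHE22, a basic helix-loop-helix factor known from neurons, read 12570 and 10633 in BC3 and 140 and 164 in BCBL1, close to background there. The difference was -6.90 ± 0.13, or 119-fold (adjusted p = 1.89e-12). CLDN11, a tight-junction claudin, read 8730 and 6438 in BC3 and 173 and 152 in BCBL1, 68.4-fold higher in BC3. EPCAM, an epithelial adhesion molecule, was 55.3-fold higher with 7075 and 5246 against 150 and 175, and its dimmer probes gave -5.61 and -2.34.

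COX7B2, a cytochrome oxidase subunit known from testis, was 45.9-fold higher in BC3. ITGB7, the beta chain of gut-homing integrins, read 5158 and 3622 in BC3 and 160 and 179 in BCBL1, 36.7-fold higher. FERMT3, the kindlin that activates integrins in blood cells, was 16.7-fold higher, and NDN, an imprinted growth suppressor, 24.5-fold. GSTP1, a glutathione transferase, read 9241 and 8211 in BC3 and 303 and 341 in BCBL1, 28.9-fold higher. SOWAHC was 28.0-fold higher. SGPP2, a sphingosine phosphate phosphatase, was 20.6-fold higher on its brightest probe, while another near background gave -0.21.

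Genes above background on both treated BC3 arrays and on neither treated BCBL1 array numbered 605, of which 472 were called. MGST2, a membrane-bound glutathione transferase, read 6257 and 5346 in BC3 and 124 and 134 in BCBL1, at least 66.1-fold higher. PLBD1, a phospholipase-like protein, was at least 50.8-fold higher, and FHL2, a LIM-domain cofactor, at least 43.4-fold. IL13RA2, a decoy receptor of interleukin 13, was at least 39.6-fold higher with 4172 and 2949 against 132 and 121. ITM2A followed with at least 35.7-fold, KBTBD11 with 29.6-fold as its bound, and the aminopeptidase LVRN with at least 27.7-fold. A dimmer ITM2A probe also was higher in BC3 (-0.65). The antiviral gene MX1 had a bound of 27.7-fold and is taken up with the interferon genes.

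**Figure D2:**
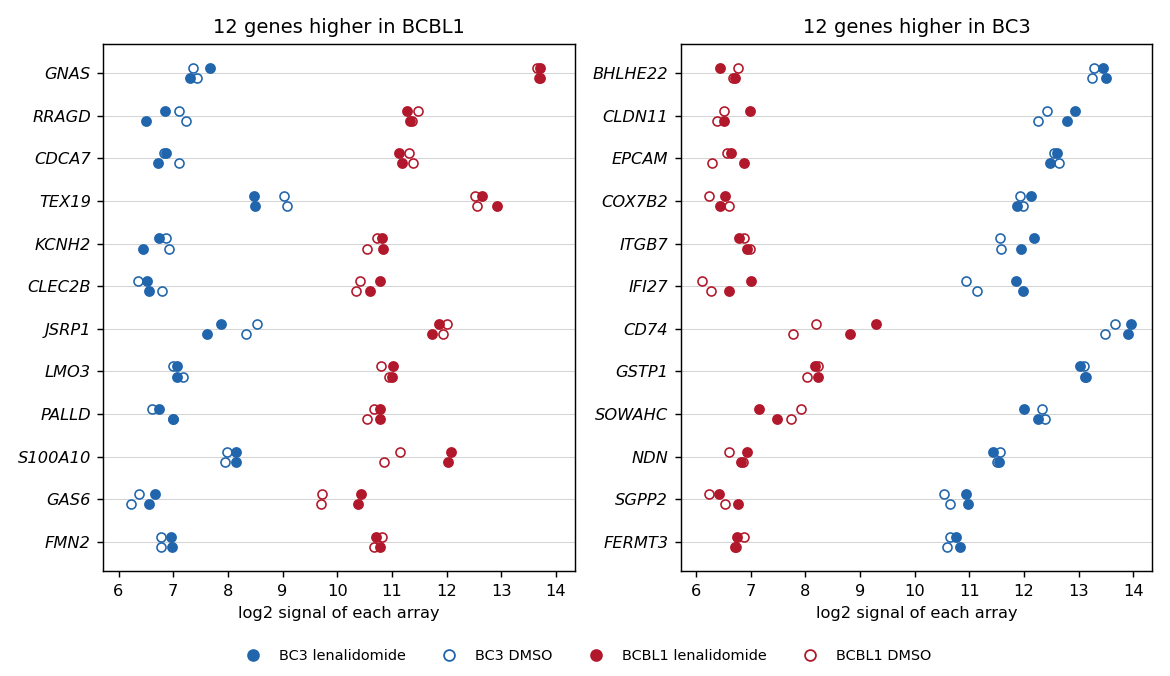
Normalized log2 signal (horizontal axis) on each array for the 12 genes with the largest called excess in BCBL1 (left) and in BC3 (right) among genes above background on all 4 treated arrays. Filled points are lenalidomide arrays, open points DMSO arrays, blue BC3 and red BCBL1, and for every gene shown the arrays of the lines stay apart with either treatment.

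Transcripts of the lenalidomide target and its substrates differed moderately. IKZF1 read 1447 and 1410 in BC3 and 527 and 688 in BCBL1, a difference of -1.10 ± 0.14 (adjusted p = 2.96e-05), or 2.15-fold higher in BC3. IKZF3 read 321 and 270 in BC3 and 173 and 229 in BCBL1 (-0.55 ± 0.17, adjusted p = 0.0169). A dimmer IKZF3 probe gave -0.95 ± 0.15 (limma, adjusted p over probes = 2.29e-04). CRBN, which encodes cereblon, read 1444 and 1254 in BC3 and 897 and 919 in BCBL1 (-0.37 ± 0.12, adjusted p = 0.0254), and another CRBN probe gave 0.03. For all 3 genes both BC3 arrays were above both BCBL1 arrays, while 69.3% of all genes tested had no overlap in one direction or the other. The call of IKZF3 was lost without array a or b of treated BC3 or array a of treated BCBL1, with adjusted p up to 0.186. That of CRBN was lost without array a or b of treated BC3 or array b of treated BCBL1, with adjusted p up to 0.128. CUL4A, a scaffold of the ligase, was the member most in excess in BCBL1 (0.97 ± 0.12, 1.96-fold), with a dim probe at -0.09. ZBTB39, a zinc-finger protein, followed with 0.51 ± 0.14, a call lost without array a of either treated line (adjusted p up to 0.0706). Of the 17 members of this list, 3 were higher in BCBL1 and 4 higher in BC3, or 41.2% called against 41.8% of all genes, with a median of -0.10.

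IRF4 read 2956 and 2331 in BC3 and 2651 and 3056 in BCBL1, and the arrays of the lines overlapped. Its difference was 0.29 ± 0.16 (adjusted p = 0.161), with a 95% interval from -0.05 to 0.64. MYC read 3557 and 3089 in BC3 and 1772 and 1747 in BCBL1, 1.68-fold higher in BC3 (-0.74 ± 0.13, adjusted p = 4.09e-04). A dimmer MYC probe gave -1.25 ± 0.15 (limma, adjusted p over probes = 1.46e-05). The line difference with lenalidomide minus that with DMSO was -0.77 on the dimmer probe and -0.01 on the brightest. MXD4 and MXI1, which bind the MYC partner MAX and oppose MYC, were 3.20-fold and 1.98-fold higher in BC3, the latter with dimmer probes at -0.15 and -0.24. KLF2, a factor of quiescent lymphocytes, was 2.12-fold higher in BCBL1. Together 1 of 15 tested members of the list of IRF4, MYC and partner factors was higher in BCBL1 and 5 were higher in BC3, or 40.0% called against 41.8% of all genes.

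Interferon-stimulated genes encode the antiviral proteins that cells make in response to interferon or to a virus sensor. Of 54 listed genes 50 were tested, with 6 higher in BCBL1 and 33 higher in BC3, or 78.0% called. At least 2-fold, 0 were higher in BCBL1 and 15 in BC3. The median difference was -0.66, against 0.0071 for all genes, and between -0.80 and -0.66 over the scalings tried. MX1, a GTPase that blocks virus replication, read 2629 and 2302 in BC3 and 121 and 137 in BCBL1. IFI27, a mitochondrial protein, read 4146 and 3781 in BC3 and 175 and 157 in BCBL1, 34.4-fold higher (-5.11 ± 0.15).

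HERC5, the ligase that attaches ISG15, read 1250 and 1092 in BC3 and 135 and 163 in BCBL1, 11.6-fold higher in BC3, and EPSTI1 was 9.59-fold higher. IRF1, IRF7 and IRF9, transcription factors of the response, were lower in BCBL1 by -0.87 ± 0.12, -2.87 ± 0.15 and -2.22 ± 0.14. IRF7 and IRF9 were named after their values were seen. The 6 members that were higher in BCBL1 had differences from 0.30 to 0.85, and PML, a nuclear body protein, led them. ADAR, EIF2AK2, BST2 and ISG20 were among the 11 members not called; they and PML were named after their values were seen.

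The regions around the start sites of the genes that differed most were read for the element that interferon factors bind, since these genes moved together. The sequences are RefSeq's (GRCh38.p14), from 250 bases before to 50 bases after the start, 5′ to 3′ on the gene's strand, with matches to GAAANNGAA on either strand in capitals. MX1 lies at chr21:41420308-41420607 on the plus strand, and IFI27 at chr14:94110486-94110785 on the plus strand.
MX1: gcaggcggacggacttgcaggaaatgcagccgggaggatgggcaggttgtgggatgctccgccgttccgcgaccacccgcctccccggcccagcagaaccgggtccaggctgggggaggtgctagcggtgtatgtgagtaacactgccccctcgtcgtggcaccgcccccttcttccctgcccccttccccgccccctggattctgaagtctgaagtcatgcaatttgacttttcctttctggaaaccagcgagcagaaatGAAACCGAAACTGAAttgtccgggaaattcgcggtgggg
IFI27: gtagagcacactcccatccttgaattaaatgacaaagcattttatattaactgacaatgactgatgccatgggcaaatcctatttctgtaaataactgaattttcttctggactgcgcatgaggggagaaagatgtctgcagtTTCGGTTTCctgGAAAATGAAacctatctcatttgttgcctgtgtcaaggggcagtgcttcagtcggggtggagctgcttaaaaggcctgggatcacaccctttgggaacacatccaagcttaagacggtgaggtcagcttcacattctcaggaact
In MX1 a pair of overlapping matches lies after the start, and in IFI27 a match on each strand lies before it. Of the 50 tested members 40 had such a region in the table, and 26 of them (65.0%) held the motif, against 8.29% of all 27305 regions. Among members higher in BC3 that had a region, 16 of 25 held it. A match is a description of letters and not a bound site.

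MHC class II molecules show peptides to helper T cells, and CD74 is the invariant chain that guards their groove. Of 19 listed genes 18 were tested, with 1 higher in BCBL1 and 11 higher in BC3, 10 of the latter at least 2-fold. The median difference was -1.34 and 66.7% were called. CD74 read 17886 and 14163 in BC3 and 577 and 478 in BCBL1, 29.4-fold higher (-4.88 ± 0.17, adjusted p = 1.17e-10). HLA-DRA, the alpha chain of HLA-DR, read 9648 and 8206 in BC3 and 867 and 920 in BCBL1, 9.23-fold higher. In both genes the BCBL1 signal was well above background, so that less of the transcript was seen rather than none.

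The probes annotated to HLA-DRB4 and HLA-DRB6 were 8.80-fold and 6.89-fold higher in BC3. Their other probes did not all follow: for HLA-DRB4 they gave -2.34 and 0.10, and for HLA-DRB6 -0.18. HLA-DRB5 was the member higher in BCBL1, with 137 and 122 in BC3 and 281 and 308 in BCBL1 (1.97 ± 0.14), and was named after its value was seen. The HLA genes have near-identical copies, so the values of single members are uncertain. The transactivator CIITA and the promoter factors RFX5, RFXANK and RFXAP were not called, with differences from -0.33 to -0.28 and adjusted p of 0.0553 to 0.107.

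A CCAAT box is part of the promoter module that the MHC class II chains and CD74 share. CD74 lies at chr5:150412861-150413160 on the minus strand (GRCh38.p14, same window and source), with CCAAT on either strand in capitals.
CD74: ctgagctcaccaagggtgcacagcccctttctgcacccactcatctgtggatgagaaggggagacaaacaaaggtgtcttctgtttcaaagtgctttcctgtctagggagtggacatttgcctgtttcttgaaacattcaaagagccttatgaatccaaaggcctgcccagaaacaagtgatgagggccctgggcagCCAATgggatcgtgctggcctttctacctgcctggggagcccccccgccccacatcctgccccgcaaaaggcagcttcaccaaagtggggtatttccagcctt
Of the tested members 13 had a region in the table and 10 (76.9%) held CCAAT, against 35.7% of all regions of this length. Among members higher in BC3 that had a region, 6 of 7 held it. The list also holds regulators such as RFX5, which was among the 10 with CCAAT.

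MHC class I molecules show peptides from inside the cell to killer T cells. Of 20 tested genes of this list 3 were higher in BCBL1 and 13 higher in BC3, or 80.0% called, with a median of -0.65. TAPBP, which loads peptides, read 2586 and 2179 in BC3 and 401 and 416 in BCBL1, 5.78-fold higher, and its dimmer probes gave -1.59 and -0.56. HLA-G, the immunoproteasome subunit PSMB9 and HLA-F were 3.79-fold, 3.42-fold and 3.24-fold higher in BC3. B2M, the shared light chain of class I, was among the brightest probes in both lines, with 34641 and 28333 in BC3 and 28720 and 25440 in BCBL1. Its difference was 0.04 ± 0.14 with a 95% interval from -0.25 to 0.33, and it was named after its value was seen.

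**Figure D3:**
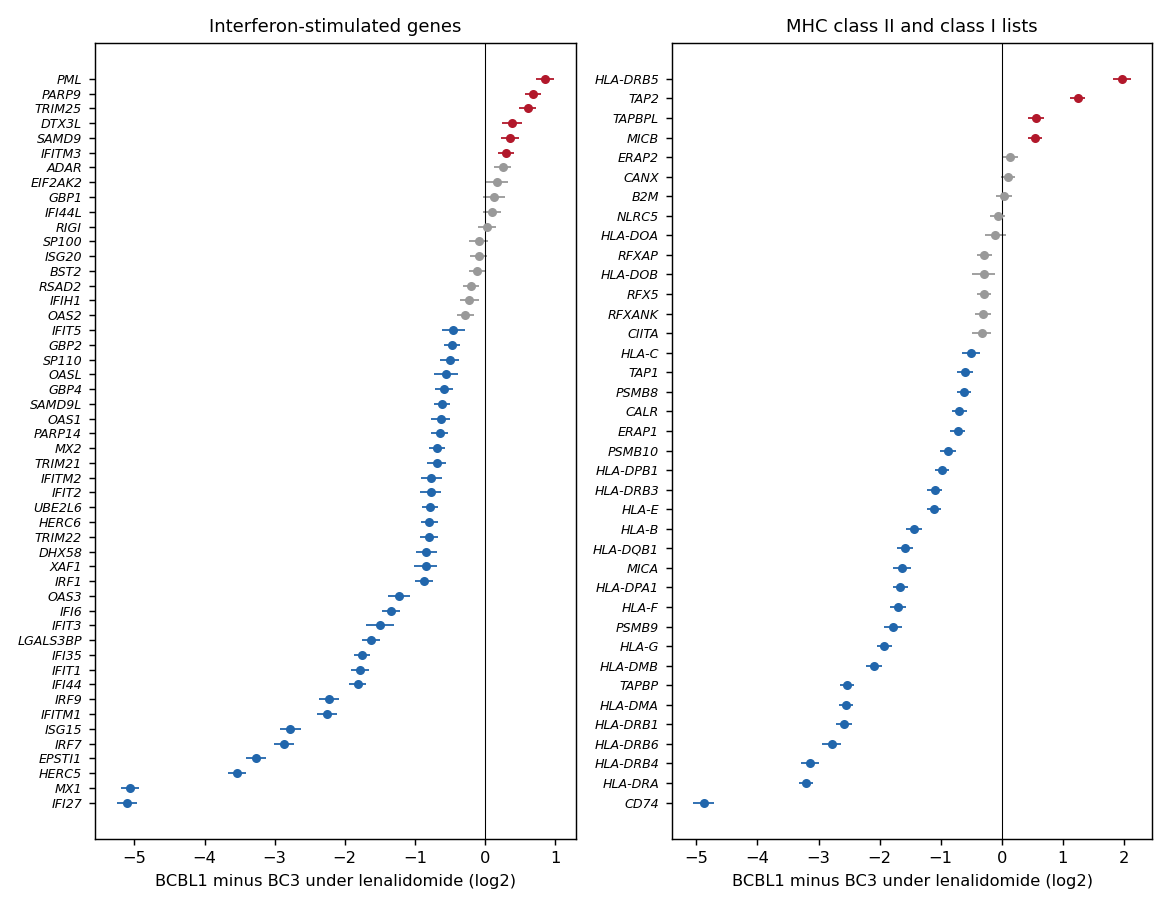
Difference BCBL1 minus BC3 under lenalidomide (horizontal axis, log2, bars are standard errors) for each of 50 interferon-stimulated genes (left) and for the 18 MHC class II and 20 class I genes (right). Blue points are called higher in BC3, red points called higher in BCBL1 and grey points not called; blue points fill most of each panel, from IFI27 and CD74 at the far left.

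NF-kB is a family of transcription factors held in the cytoplasm by the inhibitor NFKBIA, which NF-kB itself induces. NFKBIA read 5369 and 4742 in BC3 and 1134 and 1173 in BCBL1, 4.04-fold higher (-2.01 ± 0.13). TNFAIP3, the feedback inhibitor A20, read 834 and 828 in BC3 and 227 and 226 in BCBL1, with an adjusted p of 1.03e-07. CD83, a surface marker of activated cells, and IRF1 were 2.39-fold and 1.83-fold higher in BC3. Of 27 tested members 4 were higher in BCBL1 and 10 higher in BC3, or 51.9% called against 41.8% of all genes. Their median was -0.29. The region of NFKBIA at chr14:35404700-35404999 on the minus strand held a match to GGNNTTTCC on each strand, shown in capitals.
NFKBIA: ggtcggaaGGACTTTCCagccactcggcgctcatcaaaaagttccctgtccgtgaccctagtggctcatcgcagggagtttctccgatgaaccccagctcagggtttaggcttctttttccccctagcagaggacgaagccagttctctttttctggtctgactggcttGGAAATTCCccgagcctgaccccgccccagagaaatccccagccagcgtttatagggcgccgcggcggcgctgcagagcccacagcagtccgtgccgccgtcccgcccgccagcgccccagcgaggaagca
That motif was in 8 of 23 regions of the tested members (34.8%) and in 6.26% of all regions, and in 3 of the 9 members higher in BC3 that had a region.

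Of 24 tested cytokine genes 3 were higher in BCBL1 and 10 higher in BC3, against 20.4% and 21.3% of all genes. IL6, a growth factor of plasma-cell tumours, read 544 and 467 in BC3 and 185 and 191 in BCBL1, 3.03-fold higher. LTB, the lymphotoxin beta chain, was at least 6.99-fold higher in BC3, IL32 at least 4.08-fold and the growth factor BMP4 at least 1.98-fold. Chemokine genes had 2 of 19 members higher in BCBL1 and 6 higher in BC3, or 42.1% called against 41.8% of all genes. CCL3, which draws in monocytes, was 5.99-fold higher in BC3 with 882 and 779 against 191 and 159. CXCL10, an interferon-induced chemokine, was at least 2.27-fold higher. The homing receptor CCR7 was 2.00-fold higher in BC3, and CCR2 2.59-fold, although 2 of the other CCR2 probes gave 0.04 and -0.03.

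Receptors for cytokines and growth factors split by line. Of 38 tested members 13 were higher in BCBL1 and 10 higher in BC3, or 60.5% called against 41.8% of all genes. At 2-fold or more 10 were higher in BCBL1 and 2 in BC3. The median of 0.12 turned to -0.05 with median scaling. TYRO3, the receptor kinase of GAS6, read 561 and 499 in BC3 and 2126 and 2197 in BCBL1 (2.41 ± 0.11). TGFBR3, a coreceptor of TGF-beta, was 4.21-fold higher in BCBL1, and IL27RA, the receptor of interleukin 27, 3.24-fold. IL17RB, a receptor of interleukin 25, read 1957 and 1473 in BC3 and 112 and 127 in BCBL1, at least 18.6-fold higher in BC3.

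Adhesion and costimulatory genes had 9 of 28 tested members higher in BCBL1 and 7 higher in BC3. The share called was 57.1%, against 41.8% of all genes, and the median of 0.11 turned to -0.01 with median scaling. Besides ITGB7, the tetraspanin CD9 read 1826 and 1643 in BC3 and 148 and 161 in BCBL1, 16.5-fold higher in BC3, while another CD9 probe gave 0.06. SELPLG, the ligand of P-selectin, was 4.21-fold higher in BC3. ITGA6, the laminin-binding integrin alpha chain, was at least 3.67-fold higher in BCBL1. LAMC1, a laminin chain in the list of matrix genes, was at least 9.99-fold higher in BCBL1 as well, with 131 and 123 in BC3 and 747 and 878 in BCBL1. SPARC, a matrix protein of collagen assembly, was 5.36-fold higher in BCBL1. Of 23 tested matrix and gla protein genes 7 were higher in BCBL1 and 3 higher in BC3, with a median of 0.24. That is 43.5% called, against 41.8% of all genes.

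Genes of cell survival and of the cell cycle differed in single members. BCL2, which blocks apoptosis, read 784 and 743 in BC3 and 136 and 151 in BCBL1, 7.72-fold higher in BC3; of its dimmer probes 1 gave -2.44 and the others -0.28 and 0.23. BIK, a killer of the same family, was at least 1.60-fold higher in BC3. PMAIP1, the killer NOXA, had a difference of -1.06 ± 0.28 with a wide spread within each line, 1118 and 545 in BC3 and 261 and 477 in BCBL1, and lost its call without array a of either treated line (adjusted p = 0.0988 and 0.104). BIRC5, the mitotic inhibitor survivin, was 2.52-fold higher in BCBL1. The BCL2 family and death receptor list had 5 of 30 members higher in BCBL1 and 12 higher in BC3, with a median of -0.28. Its share called was 56.7%, against 41.8% of all genes.

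CDKN2A, which encodes the inhibitor p16 and the separate protein ARF, read 137 and 138 in BC3 and 675 and 677 in BCBL1, at least 8.21-fold higher in BCBL1; which of its transcripts the probe reads was not examined. RB1, the tumour suppressor that p16 protects from phosphorylation, read 151 and 147 in BC3 and 520 and 581 in BCBL1, 6.50-fold higher. CDK6, the kinase that p16 inhibits, read 189 and 151 in BC3 and 716 and 985 in BCBL1, 8.54-fold higher. E2F3, a factor that RB1 holds back, was 2.40-fold higher in BCBL1. These 4 genes were named for having the largest called differences of their list. Of 24 tested CDK inhibitors and cyclins 10 were higher in BCBL1 and 4 higher in BC3, against 20.4% and 21.3% of all genes. CDKN1A, the inhibitor p21, read 5804 and 5008 in BC3 and 4755 and 5314 in BCBL1 and was not called (0.06 ± 0.14, 95% interval -0.24 to 0.35); it was named after its value was seen.

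Of 26 p53 target genes 5 were higher in BCBL1 and 3 higher in BC3, or 30.8% called, with a median of 0.05 that turned to -0.08 with median scaling. AEN, a nuclease of apoptosis, and TP53INP1 were 1.97-fold and 1.98-fold higher in BCBL1. TP53I3, a redox enzyme, was 2.36-fold higher there with a dimmer probe at 0.26. DNA replication and mitosis genes had 11 of 41 members higher in BCBL1 and 5 in BC3, but 7 and 8 with median scaling. In the main fit 39% of this list were called, against 41.8% of all genes. FOXM1 and MCM10 were 2.05-fold and 2.24-fold higher in BCBL1 and the helicase subunit MCM5 2.06-fold higher in BC3. Of 35 cytosolic ribosomal protein genes 20.0% were called, against 41.8% of all genes, and 0 on their brightest probe at 2-fold or more. RPL8, RPL4 and RPS2 were higher in BCBL1 by 0.66, 0.42 and 0.48 and RPL22 higher in BC3 (-0.47), a dimmer RPL8 probe gave 1.51, and the median of the list of 0.04 turned to -0.09 with cyclic loess and to -0.19 with median scaling, where 0 members were higher in BCBL1 and 4 in BC3. RPL4 and RPS2 lost their calls without array a of treated BC3, RPL4 also without array b and RPS2 without array a of treated BCBL1 (adjusted p up to 0.0714 and 0.0840).

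Cancer-testis antigens are germ-line genes that tumours switch on, many of them on the X chromosome and in families of near copies. Of 36 tested members 5 were higher in BCBL1 and 16 higher in BC3, 2 and 10 of them at least 2-fold. Together 58.3% were called, against 41.8% of all genes. MAGEC1 read 2208 and 1810 in BC3 and 133 and 148 in BCBL1, 22.9-fold higher in BC3. SSX2, PAGE2 and GAGE12F were at least 20.8-fold, 18.7-fold and 12.5-fold higher in BC3, each at background in BCBL1, and their probes may not tell copies of a family apart. TEX19, outside this list, went the other way.

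Of 39 tested developmental transcription factors 9 were higher in BCBL1 and 10 higher in BC3, shares near the 20.4% and 21.3% of all genes. ID3, which blocks helix-loop-helix factors, read 2047 and 1881 in BC3 and 182 and 222 in BCBL1, 12.2-fold higher in BC3. RUNX3, a factor of lymphoid cells, was 8.31-fold higher in BC3 with 1998 and 1888 against 254 and 265. LEF1, the partner of beta-catenin in Wnt signalling, read 593 and 506 in BC3 and 2154 and 2616 in BCBL1, 5.61-fold higher in BCBL1. HOXC6 was 4.99-fold higher in BCBL1. Of these 4 genes each line had 2, and FZD2, the Wnt receptor given above, lay on the same side as LEF1.

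Genes of detoxification and redox balance had 6 of 33 tested members higher in BCBL1 and 16 higher in BC3, 2 and 10 at 2-fold or more. The median was -0.33, and 66.7% were called, against 41.8% of all genes. Besides MGST2 and GSTP1, ALDH1A1, a retinal dehydrogenase, read 771 and 643 in BC3 and 148 and 173 in BCBL1, 5.79-fold higher in BC3. The peroxidase GPX7 was at least 3.31-fold higher in BC3. FADS1, a fatty acid desaturase, read 1385 and 1104 in BC3 and 116 and 125 in BCBL1, at least 13.3-fold higher in BC3. The elongase ELOVL6 and the mevalonate enzyme PMVK were 2.64-fold and 2.94-fold higher in BCBL1, as was the cholesterol exporter ABCA1, which is described with the drug effect. In all 5 of 26 cholesterol and fatty acid genes were higher in BCBL1 and 10 higher in BC3. Here 57.7% were called, against 41.8% of all genes.

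The named glucose transporters lay on opposite sides. SLC2A1, the common glucose transporter, read 724 and 610 in BC3 and 238 and 217 in BCBL1, 3.07-fold higher in BC3, while SLC2A3 was at background in BC3. The hypoxia and mitophagy gene BNIP3 read 1628 and 1101 in BC3 and 139 and 162 in BCBL1, 13.1-fold higher in BC3, and its relative BNIP3L was 2.23-fold higher. Of 31 glycolysis and hypoxia genes 11 were higher in BCBL1 and 8 higher in BC3, or 61.3% called against 41.8% of all genes. With median scaling these counts became 6 and 9. PHGDH, an enzyme of serine synthesis, read 1335 and 1335 in BC3 and 5596 and 5536 in BCBL1, 4.94-fold higher, and PSAT1, another enzyme of serine synthesis, was at least 3.30-fold higher in BCBL1. SLC7A5, which imports large amino acids, was 5.15-fold higher in BCBL1, and the stress factor ATF5 3.77-fold higher in BC3. The stress list these belong to had 7 of 27 members called on each side, or 51.9% in all against 41.8% of all genes.

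G protein and cAMP genes had 12 of 37 tested members higher in BCBL1 and 9 higher in BC3, with 7 and 5 at 2-fold or more. Of these members 56.8% were called, against 41.8% of all genes. Beside GNAS, PDE3B, which breaks down cAMP, was 3.62-fold higher in BCBL1. GNAQ, another alpha subunit, was at least 3.22-fold higher in BC3. NPTX2, a secreted pentraxin placed in this list, was 4.85-fold higher in BC3 with 2205 and 1869 against 394 and 432. Immediate-early genes had 9 of 26 members higher in BCBL1 and 5 higher in BC3, or 53.8% called against 41.8% of all genes. KLF10 was 2.58-fold higher in BCBL1 and KLF6 2.40-fold higher in BC3.

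Called epithelial genes lay on both sides. EPCAM and the cadherin CDH1, with 628 and 628 in BC3 and 148 and 173 in BCBL1, were higher in BC3, as were KRT80 (3.16-fold) and the junction receptor LSR (4.16-fold, with dimmer probes at -1.67 and -0.16). The mucin MUC13 read 2686 and 2484 in BC3 and 6010 and 6080 in BCBL1, 2.63-fold higher in BCBL1, and MUC1 was 2.40-fold higher there. Of 13 tested keratin, mucin and junction genes 3 were higher in BCBL1 and 7 higher in BC3, and of 10 tested epithelial, stromal and endothelial markers 0 and 5, among them ACTA2 (3.79-fold) and VIM (1.91-fold). The shares called in these lists were 76.9% and 50%, against 41.8% of all genes. KDR, CDH5, VWF and FN1 were above background on 0 treated arrays. The summed intensity of the epithelial, stromal and endothelial list was 23809 to 30453 in treated BC3 and 9816 to 10280 in treated BCBL1, most of it from VIM. Without VIM the sums were 7952 to 10093 in BC3 and 1650 to 1734 in BCBL1. The part of this list in the other differences was not tested. Among complement and protease inhibitor genes, CFD and the collagen chaperone SERPINH1 were 5.57-fold and 3.76-fold higher in BCBL1 and SERPINA1, the blood antitrypsin, at least 4.56-fold higher in BC3. That list had 6 of 23 members higher in BCBL1 and 8 higher in BC3, or 60.9% called against 41.8% of all genes. The annexin ANXA5 was 1.88-fold higher in BC3, and of 20 tested S100 and annexin genes 3 were higher in BCBL1 and 5 in BC3. That is 40% called, against 41.8% of all genes.

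**Figure D4:**
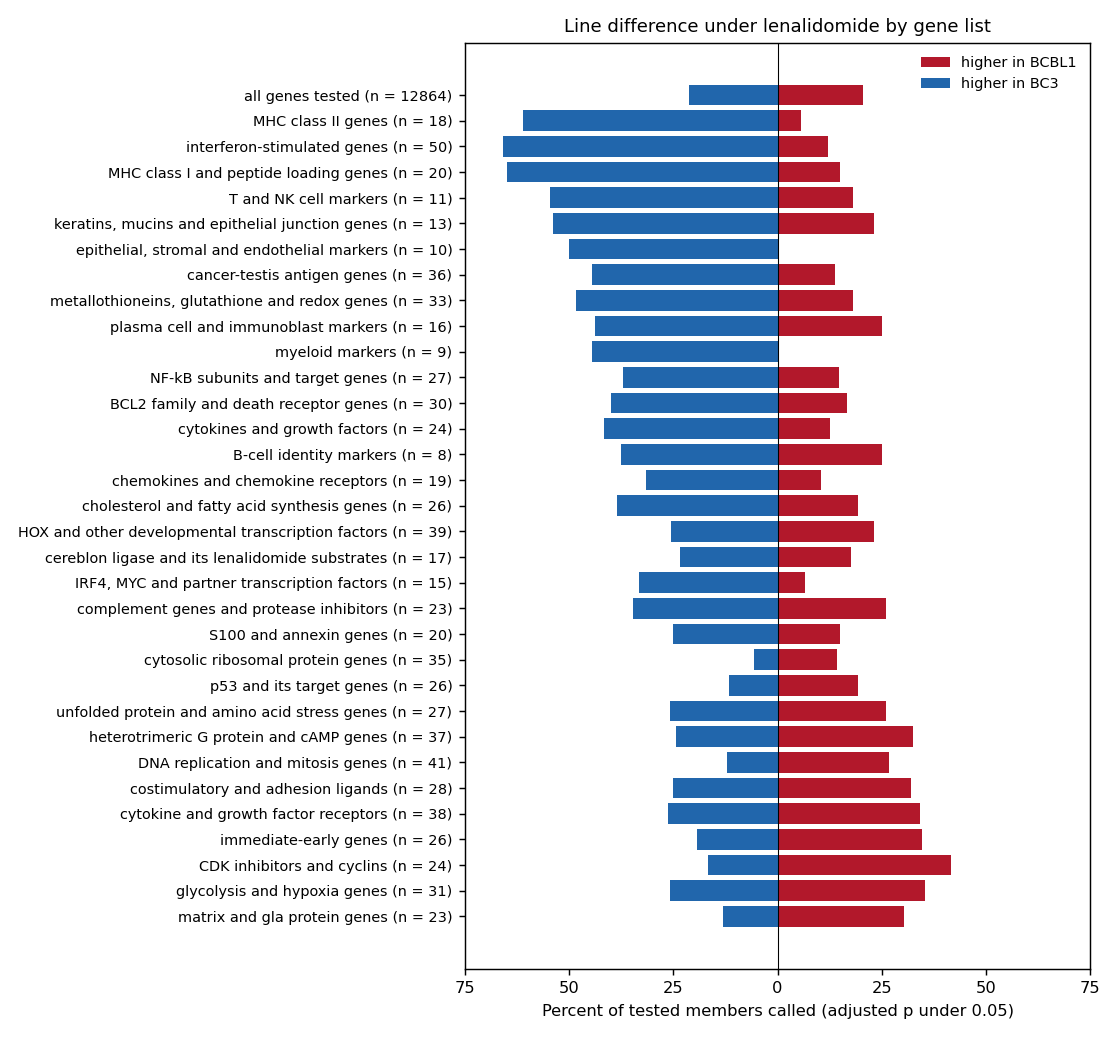
Percent of tested members of each gene list called higher in BCBL1 (red, to the right) or in BC3 (blue, to the left) under lenalidomide, with all 12864 genes in the top bar (20.4% and 21.3%). Lists are ordered by their median difference, from MHC class II genes (-1.34) to matrix and gla protein genes (0.24).

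Most of the called differences were there without the drug, though the medians of several lists differed between the treatments. With DMSO, 5217 genes were called between the lines (40.6%), 1268 of them (9.86% of all tested) at least 2-fold apart, with 571 (4.44%) higher in BCBL1 and 697 (5.42%) higher in BC3. In all, 4052 genes were called in both treatments in the same direction, which is 75.4% of the calls with lenalidomide and 77.7% of those with DMSO. Only 8 were called in opposite directions. Across genes the line difference with lenalidomide and with DMSO had r of 0.93, with no array shared between them. GNAS had a difference of 6.28 with DMSO, BHLHE22 -6.54, CD74 -5.58, MX1 -4.77 and CDKN2A 3.79. Interferon-stimulated genes had a median of -0.34 with DMSO, against -0.66 with lenalidomide, and a changed line difference was called for 3 members. Keratin, mucin and junction genes had -0.04 against -0.50, and T and NK cell markers -0.23 against -0.59. Cytokine genes had 0.04 against -0.25. MHC class I and class II genes had -0.63 and -1.02, against -0.65 and -1.34. Other medians were larger in size with DMSO, such as NF-kB (-0.36) and redox genes (-0.43). The median size of the change with lenalidomide was 0.14 in BC3 and 0.13 in BCBL1, against 0.29 between the treated lines.

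Whether the line difference itself changed with the drug was tested for every gene. The test called 63 genes (0.490%), 22 with a shift towards BCBL1 (0.171%) and 41 towards BC3 (0.319%). For 44 genes (0.342%) the called shift was at least 2-fold. Over all 63 genes, the gap between the lines was wider with lenalidomide for 42 and narrower for 21. The count was 25 to 45 when single arrays were left out, lower in each such fit. By group, it was 31 without array b of treated BC3, 32 without array a and 29 without array b of treated BCBL1, and 25 without array a and 35 without array b of BC3 with DMSO. Of the 24 named genes with a called shift, 12 stayed called in all 8 of these fits. The others were SLC2A3, ARL14EPL, NOC3L, TGM2, EGR1, TSC22D1, OR11H6, BMP4, LVRN, GALM, MAGEH1 and LPIN1, of which the last 5 lost the call in every such fit, with adjusted p up to 0.235.

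Gaps that opened with the drug came first. MGP, a matrix protein that inhibits calcification, read 1393 and 1272 in treated BC3 and 7683 and 7455 in treated BCBL1. With DMSO all 4 arrays read 167 to 185, and the lines did not differ beyond the test (0.12, adjusted p = 0.479). The line difference was 2.75 with the drug, and the shift was 2.63 ± 0.18 (adjusted p = 1.79e-05). ATP6V1B1, part of the proton pump of vesicles, read 177 and 163 in treated BC3 and 1004 and 1053 in treated BCBL1, against 140 to 187 with DMSO, a shift of 2.91 ± 0.19.

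FZD2 was above background on none of the 4 BC3 arrays, and SLC2A3 on 1 of them, with DMSO. Their fitted shifts were 1.60 and 1.24, and the change with lenalidomide within BCBL1 was 1.61 and 1.05; the change within BC3 was not measured above background. ARL14EPL, NOC3L and the transglutaminase TGM2 shifted by 1.48, 1.48 and 1.39. NOC3L was not called between the lines with DMSO (-0.31, adjusted p = 0.119) and was 2.24-fold higher in BCBL1 with lenalidomide, where its BC3 arrays read 1010 and 635. ABCA1 shifted by 1.33, from 0.47 with DMSO to 1.80 with lenalidomide.

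On the side of BC3, S100A8 and S100A9, the subunits of calprotectin, stood out. S100A9 read 1104 and 797 in treated BC3 and 167 and 181 in treated BCBL1, against 141 to 194 with DMSO. Its line difference was -2.79 ± 0.14 with lenalidomide and -0.41 with DMSO, a shift of -2.38 ± 0.20 (adjusted p = 7.42e-05). S100A8 read 686 and 581 in treated BC3 and 132 and 147 in treated BCBL1 and shifted by -2.62 ± 0.21. UBD, a ubiquitin-like protein, shifted by -1.50, TSC22D1 by -1.44, with dimmer probes between -1.79 and -0.14 for its line difference, and BMP4 and LVRN each by -0.91.

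Elsewhere the gap closed. COXFA4L3, a small mitochondrial protein, read 472 and 622 in BC3 and 2496 and 2236 in BCBL1 with DMSO, a line difference of 2.29. With lenalidomide it read 9862 and 7701 in BC3 and 8568 and 8819 in BCBL1, the arrays overlapped, and the difference was 0.14 ± 0.13 (adjusted p = 0.437). The shift was -2.15 ± 0.19 (adjusted p = 1.11e-04). Its dimmer probes shifted by -0.86 and -0.49. MUC1 shifted by -2.14, from 3.41 with DMSO to 1.27, while its dimmer probes shifted by -1.02 and 0.14, and the protease inhibitor SLPI by -1.57, from 3.17 to 1.59. EGR1, an immediate-early factor, shifted by -1.22, from 2.60 to 1.38. GALM, MAGEH1 and LPIN1 were at least 2-fold higher in BCBL1 with DMSO and were not called with lenalidomide (0.28, 0.09 and 0.11, adjusted p = 0.0613, 0.602 and 0.546), with shifts of -0.83, -0.92 and -0.98. A dimmer MAGEH1 probe did not follow, with a line difference of 0.55 with lenalidomide (adjusted p over probes = 0.00439) and a shift of 0.13.

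**Figure D5:**
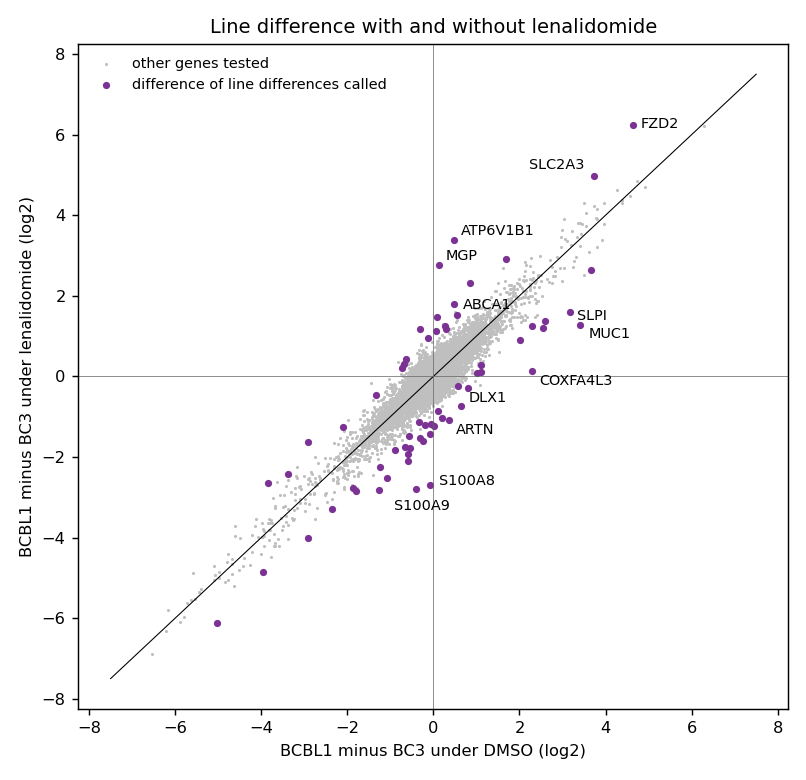
Difference BCBL1 minus BC3 (log2) with DMSO (horizontal axis) and with lenalidomide (vertical axis) for 12864 genes, 2 arrays per group. The 63 purple points are genes whose line difference was called different between the treatments; MGP and ATP6V1B1 lie far above the line of equal difference, and COXFA4L3 and MUC1 below it.

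Some genes exchanged sides. ARTN, a neurotrophic ligand, read 169 and 165 in BC3 and 196 and 195 in BCBL1 with DMSO and 436 and 372 against 185 and 215 with lenalidomide, so that its difference went from 0.36 to -1.07. The homeobox gene DLX1 went from 0.65 to -0.73, with shifts of -1.44 for ARTN and -1.39 for DLX1, and a dimmer DLX1 probe gave -0.19 with lenalidomide and a shift of -0.12. OR11H6, an olfactory receptor gene near background, went from -0.65 to 0.43. The shift was called for these 3 genes. It was not called for PCDH10 (-0.87, adjusted p = 0.113), TNFSF14 (-0.82, adjusted p = 0.0932) and the probe annotated to MIR181C (-0.84, adjusted p = 0.141), whose line differences with lenalidomide lay between -0.42 and -0.38. Another PCDH10 probe gave -0.37 (limma, adjusted p over probes = 0.0296), and a dimmer probe of this gene, not called, gave 0.30. Another TNFSF14 probe, also not called, gave 0.32. The line differences of PCDH10, TNFSF14, MIR181C and OR11H6 with lenalidomide each lost their call in 2 or more of the fits without 1 array, with adjusted p up to 0.194, 0.115, 0.172 and 0.124.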

How the data were processed

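The authors deposited a table of bead-array intensity values for 47323 probes on 8 arrays, on a linear scale, per the file headers. They also deposited a log2 table of the same arrays, whose columns had medians of 4.91 and kept the rank order of single intensity columns (rank r = 1). The submitters' processing notes name limma, and their background correction is not stated in the labels. The intensity columns carry no replicate number, so each group has an array a and an array b.

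One probe listed at 0 was left out. Background was corrected by normexp with an offset of 50, followed by quantile normalization and log2, in limma 3.58.1 under R 4.3.3. Background was rebuilt on each array from the mode of the deposited linear intensity and the spread below it, at a one-sided level of 0.05. A probe was kept where it exceeded background on both arrays of any group (24523 of 47322, or 51.8%). Of all analysed probes 30113 had 1 gene symbol, 8 several and 17201 none; 30074 symbols were updated by gene identifier to the current table and 39 kept as annotated. The brightest kept probe stood for each gene, which left 12864 genes, and other kept probes are given where their sign or call differed, and for some genes where only the size did. A limma model of 4 group means was fitted over all 8 arrays with eBayes (4 residual and 8.77 prior degrees of freedom), with Benjamini-Hochberg adjustment and a threshold of 0.05. Precision is limited by the number of arrays.

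The genes named are, among called genes with a usual symbol, the 12 largest measured differences and the 8 largest lower bounds in each direction, up to 4 called members per list, up to 6 genes per direction or kind for which the difference changed with the drug, and IKZF1, IKZF3, IRF4, MYC and CRBN, 170 in all. Other genes given with values lie outside this rule, and most are marked as named after their values were seen. CD79A, XBP1, PRDM1, CIITA, RFX5, RFXANK and RFXAP also lie outside the rule and are not marked where they appear. The interferon and NF-kB promoter motifs were shortened after longer forms, which matched fewer regions, had been searched. The members and lists were chosen with earlier results of these data known. On simulated data with 200 of the 12864 genes changed between treated BCBL1 and treated BC3, the test recovered 43.3% of changes of 0.5 on the log2 scale and 100% of changes of 1 or 2, with 10 false calls among 172. Far fewer genes differed there than the 41.8% called here, and recovery at that share was not tested. Alternatives covered the offset, the normalization, the filter, the choice of probe, the deposited log2 values, array weights, the replicate block, a test against 2-fold, the treated arrays alone and leaving out each array.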

Additional observations from a re-analysis of the deposited data

Results flagged for a closer look

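For 24 named genes the line difference with lenalidomide differed from that with DMSO by limma's interaction test. The shift, on the log2 scale and positive towards BCBL1, was 2.91 for ATP6V1B1, 2.63 for MGP, 1.60 for FZD2, 1.48 for NOC3L, 1.48 for ARL14EPL, 1.39 for TGM2, 1.33 for ABCA1, 1.24 for SLC2A3 and 1.07 for OR11H6. Towards BC3 it was -2.62 for S100A8, -2.38 for S100A9, -2.15 for COXFA4L3, -2.14 for MUC1, -1.57 for SLPI, -1.50 for UBD, -1.44 for TSC22D1, -1.44 for ARTN, -1.39 for DLX1, -1.22 for EGR1, -0.98 for LPIN1, -0.92 for MAGEH1, -0.91 for BMP4, -0.91 for LVRN and -0.83 for GALM. The shifts of ATP6V1B1, COXFA4L3, MUC1 and S100A8 were called in every alternative that gave a value for them.

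Among 6946 probes above background that carry no single gene symbol here, and so enter no comparison above, 1525 (22.0%) were called between the treated lines. Of these 835 were higher in BCBL1 and 690 in BC3, and 306 differed by at least 2-fold. Groups of 2 arrays are too small for a search for outlying arrays.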

How the results depend on the processing

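With lenalidomide 5371 genes were called between the lines, and 4379 to 5470 under the other offset, scalings, filters, probe choice, deposited log2 values, array weights and treated arrays alone. Without single arrays the count was 4269 to 5386, and with DMSO 3878 to 5262. Tested against a 2-fold difference (limma's treat), 649 genes were called with lenalidomide, 249 higher in BCBL1 and 400 in BC3, and 616 with DMSO. The called genes at least 2-fold apart numbered 1349, and 1349 to 1415 without single arrays, but 2130 with the deposited log2 values. The count of genes whose line difference changed with the drug, 63 (1323 at an unadjusted p under 0.05), fell to 21 with an offset of 16, to 30 with probes above background on all 8 arrays, where fewer genes were tested, to 30 with the deposited log2 values and to 25 to 45 without single arrays; the cause was not tested for the offset and the log2 values.

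With the replicate block, possible only on the deposited log2 values, which carry replicate numbers, the counts were 4743 with lenalidomide, 4596 with DMSO, 2128 at least 2-fold apart and 9 for the change with the drug. Same-numbered arrays did not deviate together across genes as a whole (r of -0.08 to 0.05). Such values cannot tell whether the numbers mark a pairing that touched only some genes, and this was not tested.

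Of the 170 named genes, 154 had the same call for their line difference in every setting; over 3166 pairs of gene and setting, 51 calls were lost, 3 were gained and 1 reversed. CD9 reversed to 0.0644 (not called, adjusted p = 0.752) with probes above background on all 8 arrays, since its brighter probe drops out there. For the 24 named shifts, 307 of 421 pairs remained called. Of 1671 called genes with several kept probes, 32 had probes called in both directions. Signal near background compresses differences, and folds against a line with no array above background are bounds. The arrays of a group are technical replicates per the series text, and whether separate cultures were grown is not stated. Each statement is thus limited to the cultures of these lines that were sampled.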
